A study of Mus musculus with 9 samples.

Results

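The genes described here flank the Blinc1 locus on mouse chromosome 2. They are the 128 genes whose midpoint lies between 137 and 157 Mb (mm9) and that reached 1 FPKM (fragments scaled by transcript length and library depth) in at least 3 of 9 libraries, after leaving out 9 symbols by name: Nkx2-2, Nkx2-2as, AI646519, Foxa2, Plk1s1, Xrn2, Ralgapa2, Insm1 and Pcsk2. The interval holds 237 of the 23699 deposited rows; 135 of them passed the filter, 7 of these were among the symbols left out, and the 128 members are part of the 13306 genes tested. Distances are from the gene's midpoint to Nkx2-2 (147003282 to 147012138), negative towards the centromere. The study profiled RNA of whole pancreas from mouse embryos at e15.5 in 3 groups of 3 libraries: wild type (Blinc1+/+), heterozygotes (Blinc1+/-) and knockouts (Blinc1-/-). The strain background was mixed, C57BL/6 and 129Sv, in every group, and no treatment is named. The construction of the mutant allele is not given in the sources used here. Whether a group's libraries are separate embryos or litters is not labelled, and the p-values then cover only the spread among these libraries, which may be technical.

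Blinc1 encodes a long noncoding RNA and neighbours Nkx2-2, whose homeodomain protein is needed for islet cell development. Some long noncoding RNA genes act in cis, through their transcript, the act of their transcription or enhancers within them, and such effects are looked for among neighbouring genes. The members are mostly housekeeping and broadly expressed genes, with a few genes of vessels, epithelium and smooth muscle. In a whole organ, fewer cells of a type and less RNA per cell cannot be told apart.

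The implied depth was 19532984 to 25437255 fragments per library, and the median member had 964.3 implied fragments. The pancreas identity genes Pdx1, Ptf1a, Sox9, Nkx6-1 and Cpa1 were found in every library, with a summed level of 7630 to 11800 FPKM. Blinc1 was not analysed here under that name, and the noncoding RNA Nkx2-2as was at 0.142 FPKM or less, so the genotype labels could not be checked from its level. Nkx2-2 was at 24.9 FPKM in the library labelled knockout replicate 1 against 6.08 and 5.48 in replicates 2 and 3, and at 6.37 in the library labelled heterozygote replicate 1 against 19.0 and 13.4 in replicates 2 and 3. Wild-type libraries were at 15.2, 21.7 and 25.5 FPKM, a range that holds knockout replicate 1. Heterozygote replicate 1 was near knockout replicates 2 and 3. Both libraries, knockout replicate 1 and heterozygote replicate 1, stand apart from their groups. Counts are given with and without them, and differences of single genes without them where a result rests on them. For Sec23b, Rbbp9, Thbd, Myl9, Pygb, Trp53inp2 and Dlgap4, knockout replicate 1 was the knockout nearest the wild-type mean. Leaving it out therefore enlarges those differences. Differences of these genes without another knockout library are not given. Sex is not labelled and was called female where Xist was above 1 FPKM. Xist was on in all knockout libraries but only in replicate 3 of the other groups. Sex and genotype therefore cannot be fully told apart in comparisons with the knockouts. The summed marker levels differed between libraries: acinar markers were at 13300 to 14300 FPKM in wild type, 15800 to 17500 in heterozygotes and 12900 to 21000 in knockouts, and mesenchyme markers at 1480 to 1960, 1370 to 1570 and 1180 to 1700. Endothelial markers summed to 255 to 301, 252 to 267 and 210 to 266 FPKM, macrophage markers to 316 to 339, 296 to 348 and 241 to 292, endocrine markers to 3710 to 5290, 2960 to 4540 and 2770 to 4600, and erythroid markers to 62.4 to 87.3, 40.1 to 61.9 and 73.3 to 118. In the knockout against wild type comparison, 9 of 9 acinar markers had a higher mean, and 0 of 10 mesenchyme, 0 of 10 endothelial, 0 of 10 macrophage, 1 of 10 endocrine and 4 of 6 erythroid markers did. No marker on these lists was at 0 in all libraries.

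The members lay unevenly about the locus, with 28 towards the centromere and 100 towards the telomere. GENCODE on the same assembly named 127 of them, 122 protein coding, with 65 on the plus and 62 on the minus strand. Of the 100 interval rows that did not pass the filter and were not left out by name, 35 were listed at 0 in every library. These included tandem families used in other tissues: all 11 beta-defensin rows (Defb, antimicrobial peptides) and all 13 Bpif rows (lipid-binding proteins of airway and mouth) failed the filter, while 1 of 9 cystatin rows (Cst, protease inhibitors) passed. At the filter's edge, the third-highest value was 1.02 FPKM for Bfsp1, 1.09 for Spag4 and 1.14 for Sdcbp2 among the members, and 0.913 for a (agouti), 0.853 for Mmp24 and 0.805 for Sstr4 among the rows outside.

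**Figure D1:**
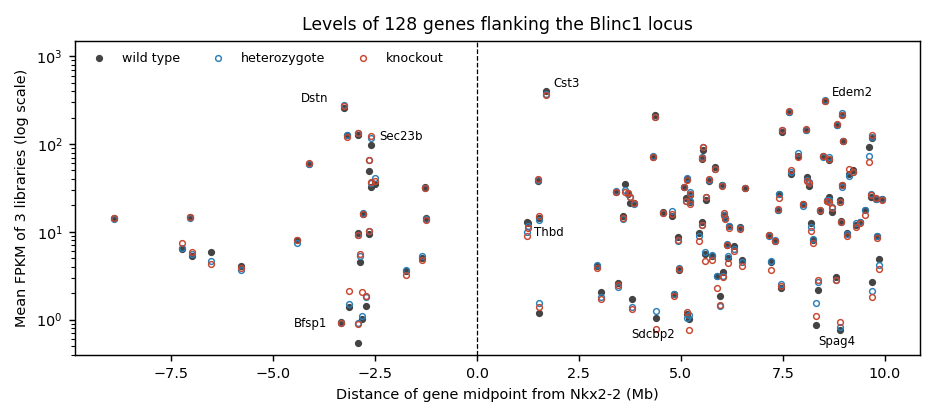
Mean FPKM (log scale) of each of the 128 members against the distance of its midpoint from Nkx2-2 in Mb, with 1 point per genotype and 3 libraries per point. The 3 genotypes' points lie close together for most genes, from Cst3 at the top down to genes near 1 FPKM.

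Levels of the members varied far more between genes than between genotypes. The median of the members' mean levels was 15.2 FPKM, against 11.6 over all genes tested; 14 members were above 100 FPKM and 31 under 5. Cst3, the secreted cysteine protease inhibitor cystatin C, was highest, at 361, 426 and 424 FPKM in wild type, 359, 375 and 384 in heterozygotes and 379, 360 and 356 in knockouts. Its groups overlapped, and the knockout mean was 0.14 lower on the log2(FPKM + 1) scale (SE 0.07, limma adjusted p = 0.58). Edem2, which helps to clear misfolded glycoproteins from the endoplasmic reticulum, was at 305 ± 15.4 FPKM in wild type and 309 ± 9.16 in knockouts (SD, n = 3). Dstn, an actin-severing protein, was at 258 ± 14.1 and 273 ± 19.3, Raly, a nuclear RNA-binding protein, at 233 ± 9.29 and 236 ± 10.2, and Romo1, a mitochondrial inner membrane protein, at 215 ± 9.82 and 214 ± 21.2. Across all 9 libraries, 90 members differed by less than 1.5-fold between their highest and lowest library, and 15 by 2-fold or more.

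The widest ranges were in genes with few fragments. Gm20571 went from 0 to 3.26 FPKM on at most 6.83 implied fragments, and the small nucleolar RNA gene Snord17, which lies within Snx5, from 0 to 1.72 FPKM on at most 2.0. Banf2, a relative of the chromatin protein Banf1, rested on 3.80 to 18.8 implied fragments. Ggt7, of the gamma-glutamyltransferase family, was at 0.556 to 1.21 FPKM in wild type, 0.720 to 2.48 in heterozygotes and 0.493 to 1.86 in knockouts, with the groups overlapping. Myl9 was the only well-covered gene among the 5 widest, and is described below with the lower genes.

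By limma, 0 of the 128 members passed an adjusted p of 0.05 in knockout against wild type, nor did any gene tested (0%), and the smallest adjusted p of a member was 0.58. At an unadjusted p of 0.05 there were 14 members, 6 with a higher and 8 with a lower knockout mean, which is 10.9% of the members against 8.39% of all genes tested. In each direction, all genes gave 2.6% higher and 5.79% lower. The groups did not overlap for 15 members, 6 higher and 9 lower (11.7%), against 11.2% of all genes (4.55% higher and 6.64% lower). A difference over 0.3 in size was found for 12 members (9.38%) and 8.72% of all genes. The median difference of the members was -0.01 on the log2 scale, with 57 higher and 71 lower, against -0.03 over all genes and over the 912 other chromosome 2 genes tested. Members' differences were also small in size, with a median of 0.08 against 0.09 for all genes. The median SE was 0.08, and for 78 members the bounds of 2 SE lay within 0.3 on either side of 0, so that larger differences of those genes lie outside their bounds. Leaving out knockout replicate 2 left 3 members under the unadjusted threshold, 3 higher and 0 lower (3.0% of all genes). Leaving out wild-type replicate 2 or 1 left 5 and 6 (3.13% and 5.39%). There were 7 when knockout replicate 3 was left out (4.53%), 7 in a fit with the embryo's sex as a term (4.19%), and 21 when the library labelled knockout replicate 1 was left out (19.8%).

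**Figure D2:**
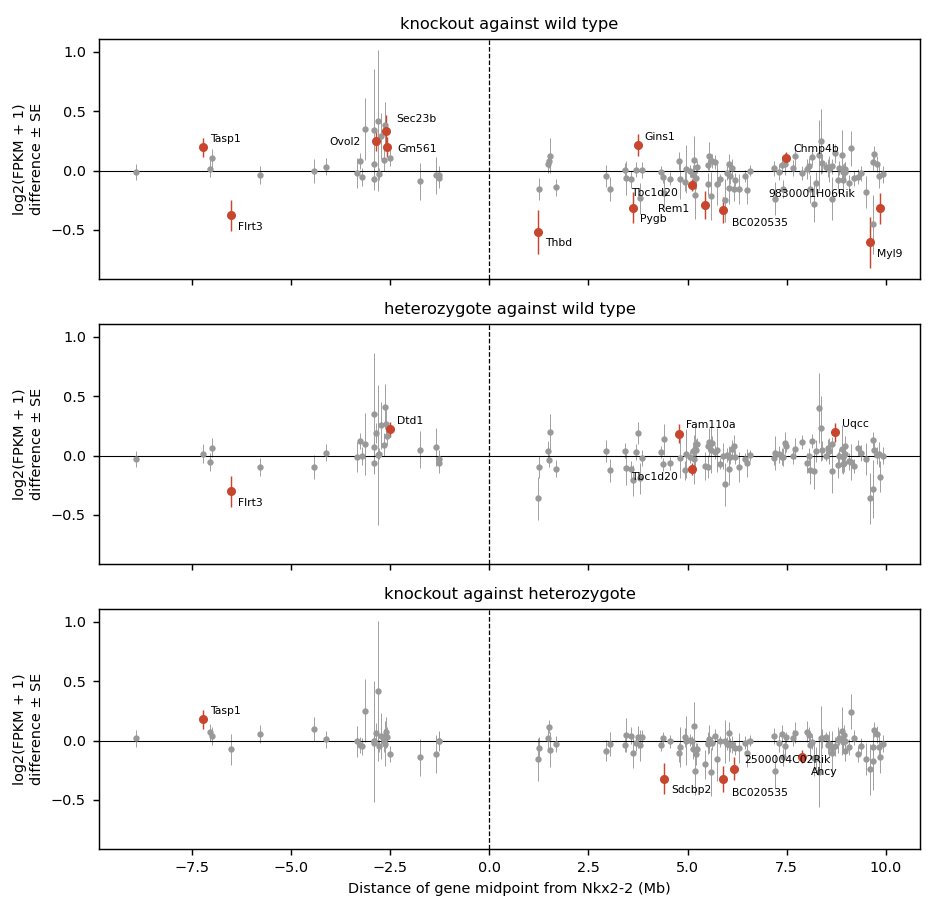
Difference of group means on the log2(FPKM + 1) scale, with its SE, for each member against distance from Nkx2-2 in Mb, in 3 panels for the 3 comparisons. Members under an unadjusted limma p of 0.05 are red and named (14, 5 and 5), and none passed after adjustment.

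In knockout against wild type, shares and medians did not rise or fall steadily with distance from Nkx2-2 across 4 ranges. Within 2.5 Mb, 1 of 11 members was under the unadjusted threshold in knockout against wild type (9.09%), from 2.5 to 5 Mb 14.3% of 35, from 5 to 7.5 Mb 14.6% of 41 and from 7.5 to 10 Mb 4.88% of 41. The median difference was -0.04, 0.00, -0.04 and -0.01 in these ranges. Groups that did not overlap were found for 0 members within 2.5 Mb, 4 from 2.5 to 5 Mb (2 higher and 2 lower, 11.4%), 11 from 5 to 7.5 Mb (4 higher and 7 lower, 26.8%) and 0 beyond 7.5 Mb, against 11.2% of all genes. On the centromeric side 16 of 28 members had a higher knockout mean, with a median of 0.04, and on the telomeric side 41 of 100, with a median of -0.02. The difference between the sides was not tested. Across the 4 ranges, heterozygote and wild-type groups did not overlap for 18.2%, 20.0%, 14.6% and 7.32% of members, against 10.6% of all genes. For knockout against heterozygote these were 18.2%, 2.86%, 17.1% and 4.88%, against 5.91%. In each, the 18.2% stands for 1 higher and 1 lower of 11 members. Of these 11, 9 had a lower knockout than heterozygote mean (median -0.06), against 7361 of all 13306 genes. An order by distance was not tested.

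**Figure D3:**
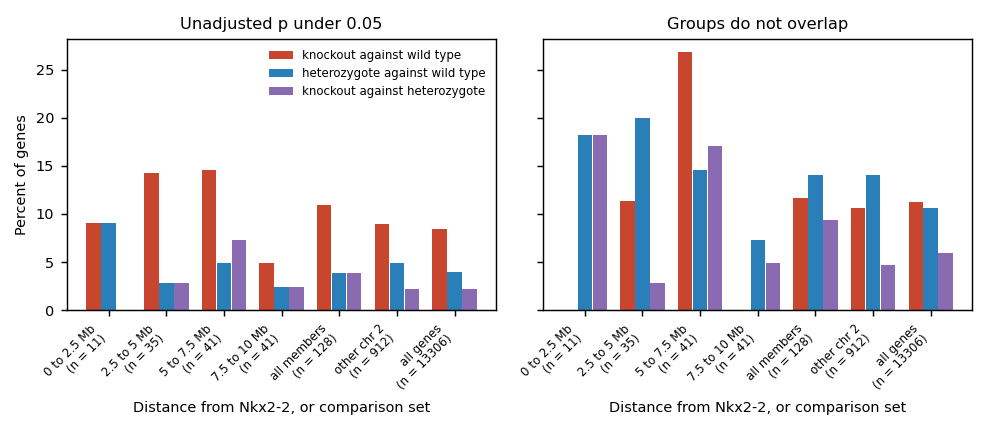
Percent of genes under an unadjusted limma p of 0.05 (left) and with groups that do not overlap (right), as bars for the 3 comparisons, in 4 ranges of distance from Nkx2-2 and in all members, the other chromosome 2 genes and all genes tested. In knockout against wild type the bars are highest from 5 to 7.5 Mb and not in the nearest range, which holds 11 members. For knockout against heterozygote the right-hand bar is highest in the nearest range (18.2%).

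Crnkl1, Naa20, Rin2 and Slc24a3, the nearest members on the centromeric side, showed no knockout difference from wild type larger than the spread between libraries. For Dtd1, the next at -2.5 Mb and described below, every heterozygote was above every wild-type library (0.22, SE 0.07, limma adjusted p = 0.94). Crnkl1, a splicing factor and the nearest at -1.26 Mb (145743218 to 145760436), was at 13.5, 14.2 and 14.9 FPKM in wild type, 13.1, 14.8 and 13.8 in heterozygotes and 15.2, 13.3 and 13.0 in knockouts. The groups overlapped, with a knockout difference of -0.04 (SE 0.08). Its neighbour Naa20, a subunit of an amino-terminal acetyltransferase, was at 32.8 ± 3.19 FPKM in wild type and 31.3 ± 2.21 in knockouts. Rin2, an activator of the endosomal GTPase Rab5, was at 4.99 ± 1.09 and 4.79 ± 0.668, and Slc24a3, a sodium, calcium and potassium exchanger, at 3.61 ± 1.04 and 3.25 ± 0.309. For Slc24a3 every knockout library was below every heterozygote library, while both groups overlapped the wild type. Its knockout difference from wild type was -0.09 (SE 0.16), and 0.10 with sex as a covariate.

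On the telomeric side the nearest member had the lower knockout mean with the largest size within 2.5 Mb. Thbd, thrombomodulin of endothelial cells, lies at 1.22 Mb (148230207 to 148233924). It was at 13.4, 15.3 and 10.5 FPKM in wild type, 10.9, 8.29 and 10.5 in heterozygotes and 11.6, 7.14 and 7.92 in knockouts. Knockout replicates 2 and 3 were below every wild-type library and replicate 1 was between them. The difference was -0.52 (SE 0.18, limma adjusted p = 0.58), and -0.70 without knockout replicate 1. Cd93, a receptor of endothelial and myeloid cells next to Thbd, was at 12.5 ± 1.25 in wild type, 11.6 ± 1.05 in heterozygotes and 11.1 ± 0.894 in knockouts, a difference of -0.16 (SE 0.09) with overlapping groups, and -0.04 with sex as a covariate. Nxt1, an mRNA export cofactor, was at 38.3 ± 4.4 and 39.8 ± 1.04 in wild type and knockout, and Napb, a vesicle fusion protein of neurons, at 1.18 ± 0.0659 and 1.39 ± 0.23. Gzf1, a zinc finger repressor, was at 14.2, 14.1 and 14.3 FPKM in wild type, 14.0, 13.6 and 13.8 in heterozygotes and 14.3, 16.0 and 15 in knockouts. Its heterozygotes lay below both other groups, with differences of -0.04 from wild type (SE 0.06) and 0.12 between knockout and heterozygote (SE 0.06).

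Near -2.6 Mb, 6 adjacent members, Zfp133-ps, Polr3f, Rbbp9, Sec23b, Gm561 and Dtd1, all had a higher knockout mean, by 0.09 to 0.39. Runs of 6, the longest in one direction, were found 5 times among the members in order along the chromosome. Of the others, Ggt7 to Procr was higher, by 0.01 to 0.25. Lower were Slc24a3 to Cd93 (-0.52 to -0.04, on both sides of Nkx2-2), Foxs1 to Tspyl3 (-0.33 to -0.02) and 2500004C02Rik to Mapre1 (-0.16 to 0.00). The Slc24a3 to Cd93 run passes over genes left out by name, Nkx2-2 among them, and so holds for members only. Among the genes left out, every knockout library was above every wild-type library for Foxa2, and below for Plk1s1. Of the 17 centromeric members from 2.5 to 5 Mb, 12 had a higher knockout mean, against 5521 of all 13306 genes, and 3 of those were under the unadjusted threshold (17.6%, against 8.39% of all genes). This stretch was chosen after its values were seen. Sec23b, of the coat that buds vesicles from the endoplasmic reticulum, lies on the plus strand (144381965 to 144416489), and Rbbp9, a serine hydrolase, on the minus strand (144368001 to 144376595). They are head to head, 5369 bases apart. Because the levels of this pair followed each other across the libraries, the 250 bases before each start are shown in the gene's direction, with matches to CCAAT (here as ATTGG, on the other strand) and TGACGT in capitals. Both come from the RefSeq promoter table (GRCm38.p6) and were placed on mm9 by exact match, at chr2:144381715-144381964 on the plus strand and chr2:144376596-144376845 on the minus strand.
Sec23b: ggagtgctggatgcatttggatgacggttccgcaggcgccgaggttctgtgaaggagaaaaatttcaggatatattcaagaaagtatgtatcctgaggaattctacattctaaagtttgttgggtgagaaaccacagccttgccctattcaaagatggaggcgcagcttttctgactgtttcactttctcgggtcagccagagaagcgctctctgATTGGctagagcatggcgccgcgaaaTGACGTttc
Rbbp9: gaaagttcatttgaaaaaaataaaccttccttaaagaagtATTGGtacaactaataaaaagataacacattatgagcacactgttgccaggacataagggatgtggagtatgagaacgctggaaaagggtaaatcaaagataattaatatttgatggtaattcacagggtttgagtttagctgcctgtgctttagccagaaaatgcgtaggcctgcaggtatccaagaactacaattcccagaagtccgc
Searched on both strands, CCAAT is found in 34.5% of the 27025 promoters of this length in the table and TGACGT in 6.56%. A match describes the letters only.

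Sec23b was at 107, 87.6 and 95.9 FPKM in wild type, 121, 123 and 106 in heterozygotes and 98.1, 139 and 134 in knockouts. Heterozygote replicates 1 and 2 and knockout replicates 2 and 3 were above every wild-type library, and knockout replicate 1 was among the wild types. The knockout difference was 0.34 (SE 0.13, limma adjusted p = 0.58) and 0.50 without knockout replicate 1. Rbbp9 was at 57.8, 41.7 and 48.6 FPKM in wild type, 71.9, 67.6 and 57.6 in heterozygotes and 46.0, 76.1 and 75.6 in knockouts. Its high and low libraries were those of Sec23b, with a difference of 0.39 (SE 0.19) and 0.62 without knockout replicate 1. As a description, log2 values of the pair had a Pearson r of 0.98 over the 9 libraries, where the median of the 127 adjacent pairs and of all 8128 pairs of members was 0.06. Summed acinar markers were highest in knockout replicate 2 (21000 FPKM) and lowest in knockout replicate 1 (12900 FPKM), and their part in the result was not tested.

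The other members of this stretch differed less. Gm561, a gene of unnamed function, was at 32.7, 29.1 and 34.7 FPKM in wild type and 38.9, 35.5 and 36.9 in knockouts, with every knockout above every wild-type library (0.20, SE 0.08). With sex as a covariate its difference was 0.11. Dtd1, a deacylase that proofreads aminoacyl-tRNA, was at 36.4, 32.9 and 36.3 in wild type, 42.9, 40.9 and 39.7 in heterozygotes and 35.2, 38.9 and 39.9 in knockouts. Only its heterozygotes lay clear of the wild type (0.22, SE 0.07, limma adjusted p = 0.94). Polr3f, a subunit of RNA polymerase III, was at 10.7, 9.20 and 8.54 FPKM in wild type and 9.01, 10.7 and 10.8 in knockouts, with overlap. Zfp133-ps, a zinc finger pseudogene, was at 0.665 to 2.02 FPKM in wild type and 1.79 to 2.01 in knockouts, with overlap. Whether a near-identical copy shares its fragments was not tested.

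**Figure D4:**
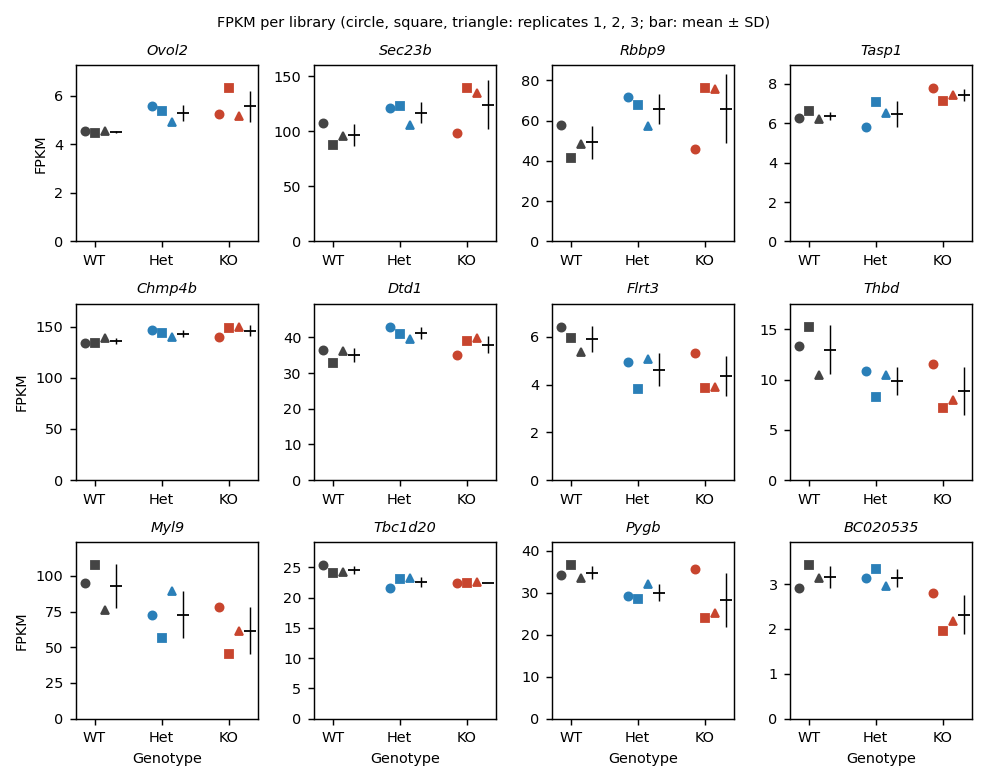
FPKM of 12 members in each of the 9 libraries by genotype (WT wild type, Het heterozygote, KO knockout), with the symbol for the replicate, bars for the mean ± SD (n = 3) and each vertical axis from 0. Knockout replicate 1 lies with the wild types for Sec23b, while all knockout libraries of Tasp1 and Ovol2 lie above the wild types.

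Elsewhere in the interval, higher knockout means under the unadjusted threshold were in 4 further genes. Ovol2, a zinc finger factor that keeps epithelial identity, lies at -2.86 Mb (144130912 to 144157816). It was at 4.53, 4.45 and 4.54 FPKM in wild type, 5.56, 5.37 and 4.93 in heterozygotes and 5.23, 6.29 and 5.16 in knockouts. Both mutant groups were above every wild-type library (knockout 0.25, SE 0.09, limma adjusted p = 0.58), and heterozygotes and knockouts overlapped. Tasp1, the protease that cleaves MLL proteins, was at 6.27, 6.62 and 6.22 in wild type, 5.80, 7.08 and 6.52 in heterozygotes and 7.77, 7.12 and 7.42 in knockouts. Its knockouts were above both other groups, by 0.20 (SE 0.08) and 0.18 (SE 0.08), and the difference from heterozygotes was 0.11 without heterozygote replicate 1. Chmp4b, a membrane-scission subunit of ESCRT-III, was at 136 ± 3.18 FPKM in wild type and 146 ± 5.23 in knockouts without overlap (0.11, SE 0.05). Gins1, a subunit of the replication helicase, was at 19.4, 20.6 and 24.5 in wild type and 23.8, 23.8 and 27.7 in knockouts, with overlap (0.21, SE 0.09), and its difference was 0.11 with sex as a covariate. 1110008F13Rik was at 116 ± 8.61 and 128 ± 7.7 FPKM (0.14, SE 0.07) and overlapped, and its difference was 0.07 with sex as a covariate.

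Lower knockout means were largest at Myl9, the smooth-muscle myosin regulatory light chain, at 9.6 Mb (156601200 to 156607393). It was at 94.9, 107 and 76.4 FPKM in wild type, 72.4, 56.3 and 89.2 in heterozygotes and 78.3, 45.6 and 61.1 in knockouts. Knockout replicates 2 and 3 were below every wild-type library, and knockout replicate 1 was above wild-type replicate 3. The difference was -0.60 (SE 0.22, limma adjusted p = 0.58) and -0.79 without knockout replicate 1. Without knockout replicate 2 no lower member, Myl9 included, was under the unadjusted threshold. The 250 bases before its start (RefSeq table as above, plus strand, chr2:156600950-156601199) are shown because smooth-muscle genes are known to carry CArG boxes, the binding motif of serum response factor, and the match is in capitals.
Myl9: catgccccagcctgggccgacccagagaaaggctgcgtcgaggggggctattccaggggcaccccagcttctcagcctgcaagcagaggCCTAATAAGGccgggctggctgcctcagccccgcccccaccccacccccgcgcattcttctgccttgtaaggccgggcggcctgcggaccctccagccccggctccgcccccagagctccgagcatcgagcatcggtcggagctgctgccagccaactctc
The CArG box is found in 1.4% of the 27025 promoters on either strand. Summed mesenchyme markers were lowest in knockout replicate 2 (1180 FPKM) and highest in wild-type replicate 2 (1960 FPKM), the libraries with the lowest and highest Myl9, and their part in the result was not tested.

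**Figure D5:**
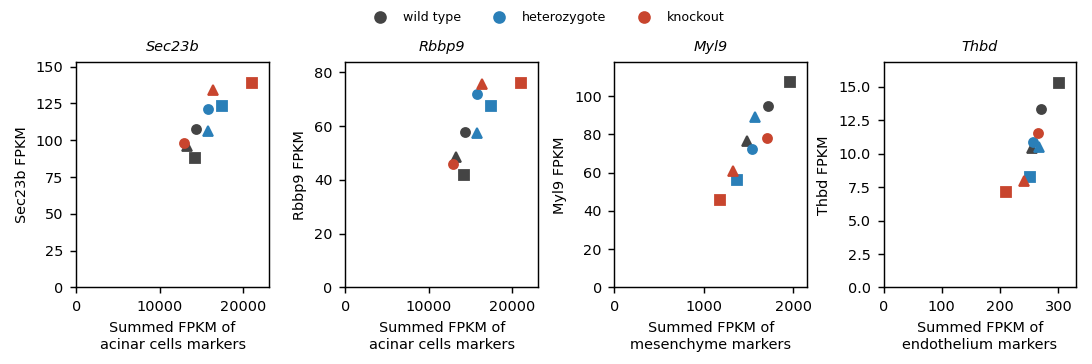
FPKM of Sec23b, Rbbp9, Myl9 and Thbd in each library against the summed FPKM of acinar, mesenchyme or endothelium markers, coloured by genotype, with both axes from 0. Sec23b and Rbbp9 lie higher where acinar markers are high, and Myl9 and Thbd lower where mesenchyme or endothelium markers are low.

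The other lower members named here were telomeric except for Flrt3. In all, 7 of the 100 telomeric and 1 of the 28 centromeric members were lower under the unadjusted threshold. Flrt3, an adhesion protein and FGF receptor partner at -6.52 Mb, was at 6.42, 5.94 and 5.37 FPKM in wild type, 4.95, 3.82 and 5.09 in heterozygotes and 5.32, 3.85 and 3.89 in knockouts. Both mutant groups were below every wild-type library, by -0.38 (SE 0.13) in knockouts and -0.30 (SE 0.13) in heterozygotes. Tbc1d20, a GTPase-activating protein for Rab1, was at 25.3, 24.0 and 24.3 in wild type, 21.6, 23.0 and 23.2 in heterozygotes and 22.5, 22.4 and 22.5 in knockouts. Its mutant groups also lay below the wild type, by -0.12 (SE 0.05) in each. BC020535 had the smallest unadjusted p of the members (limma adjusted p = 0.58), at 2.92, 3.42 and 3.14 FPKM in wild type, 3.13, 3.34 and 2.95 in heterozygotes and 2.8, 1.95 and 2.19 in knockouts. Its knockouts were below both other groups, by -0.33 (SE 0.11) against wild type. The members most like it over the 9 libraries, by Pearson r of log2 values as a description, were Trp53inp2, an autophagy factor (0.76), Pygb, brain glycogen phosphorylase (0.74), and Rem1, a small GTPase (0.73). Pygb was at 34.7 ± 1.57 FPKM in wild type and 28.2 ± 6.5 in knockouts with overlap, because knockout replicate 1 was at 35.7 (-0.31, and -0.49 without that library). Rem1 was at 9.65 ± 0.312 and 7.81 ± 1.46 without overlap (-0.29, SE 0.12), Trp53inp2 at 12.5 ± 1.05 and 10.3 ± 2.83 with overlap (-0.28, and -0.47 without knockout replicate 1), and 9830001H06Rik at 4.91 ± 0.624 and 3.76 ± 0.761 with overlap (-0.32, SE 0.13).

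By role, the cell surface, secreted and blood or vessel genes had the lowest median. In knockout against wild type 8 of 9 had a lower mean (median -0.18), where 7785 of all 13306 genes did. Flrt3, Thbd and Rem1 were under the unadjusted threshold (33.3%, against 8.39% of all genes, 5.79% lower). The exception was Procr, the protein C receptor, at 22.5 ± 2.84 and 22.6 ± 1.33 FPKM. Dlgap4, on this list though it encodes a scaffold protein inside synapses, was at 17.7 ± 0.683 and 15.7 ± 3.3 with overlap. Its difference of -0.18 is the median of the list, and was -0.33 without knockout replicate 1. Endothelial markers had a median of -0.18 and mesenchyme markers of -0.33 in the same comparison, and their part in the result was not tested.

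The role lists were matched by exact symbol, so a listed gene deposited under another symbol was not counted in its list. Among 20 genes so matched to the secretory pathway, membrane traffic and protein turnover, 10 were higher and 10 lower (median 0.01). Under the unadjusted threshold were 3 higher and 1 lower (20.0%, against 8.39% of all genes). Ergic3, of the early secretory pathway, was at 165 ± 10.2 FPKM in wild type and 167 ± 5.46 in knockouts, and the sorting nexin gene Snx5 at 128 ± 7.46 and 132 ± 6.74. Of 18 transcription and chromatin genes, 8 were higher and 10 lower (median -0.01), with Ovol2 alone under the unadjusted threshold (5.56%). Id1, an inhibitor of bHLH factors, was at 84.7 ± 11.1 and 92.0 ± 2.09 FPKM, Tgif2, a homeodomain repressor, at 24.7 ± 0.514 and 26.2 ± 2.13, Sox12, a SoxC factor, at 21.6 ± 1.05 and 20.7 ± 1.69, and Zcchc3, a nucleic acid sensor cofactor, at 26.5 ± 0.986 and 27.1 ± 1.0. Of 14 RNA processing and translation genes, 10 were higher and 4 lower (median 0.02), with 0 under the unadjusted threshold. The splicing factor gene Rbm39 was at 107 ± 6.95 and 108 ± 1.58, the ribosome assembly factor gene Eif6 at 66.5 ± 3.55 and 68.2 ± 5.07, and Snrpb2, a U2 snRNP protein gene, at 58.6 ± 3.07 and 60.0 ± 3.86 FPKM.

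Of 16 genes of cell division, cytoskeleton and cell survival, 8 were higher and 8 lower (median 0.01), with Gins1 higher and Myl9 lower under the unadjusted threshold (12.5%, against 8.39% of all genes). Tpx2, a spindle assembly factor, was at 38.0 ± 2.51 and 40.0 ± 1.49 FPKM, and the dynein light chain gene Dynlrb1 at 143 ± 11.4 and 147 ± 2.42. Of 15 genes of metabolism and mitochondria, 5 were higher and 10 lower (median -0.02), with Pygb lower under the unadjusted threshold (6.67%). The 36 members matched to no list had 15 higher and 21 lower (median -0.04), with 8.33% under the unadjusted threshold. They include genes listed under another symbol, such as Trp53inp2 (-0.28), which the secretory pathway list held as Tp53inp2.

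In heterozygote against wild type 0 members passed after adjustment (0% of all genes), and the smallest adjusted p of a member was 0.94. Under the unadjusted threshold were 5 members (3.91%), against 3.92% of all genes (1.35% higher and 2.58% lower), with Dtd1, Fam110a and Uqcc higher and Flrt3 and Tbc1d20 lower. The groups did not overlap for 18 members, 10 higher and 8 lower (14.1%), against 10.6% of all genes (3.54% higher and 7.05% lower). A difference over 0.3 in size was found for 6 members (4.69%) and 4.73% of all genes. This comparison shares the wild-type libraries with the previous one. Uqcc, an assembly factor of respiratory complex III, was at 16.7 ± 1.6 FPKM in wild type, 19.2 ± 1.11 in heterozygotes and 18.5 ± 1.04 in knockouts (0.20, SE 0.08). Fam110a, a centrosomal protein, was at 15 ± 0.532, 17.2 ± 1.44 and 15.9 ± 1.28 (0.18, SE 0.08). Entpd6, a nucleotide phosphatase, was at 15.3 ± 0.979 and 14.0 ± 0.216 with overlap (-0.12, SE 0.07). Leaving out wild-type replicate 2 or heterozygote replicate 1 gave 2 such members (2.08% and 3.04% of all genes), leaving out knockout replicate 3 gave 3 (3.31%), leaving out knockout replicate 1 gave 8 (5.58%), and leaving out wild-type replicate 3 gave 10 (6.55%). Leaving out heterozygote replicate 1 alone, the differences were 0.19 for Dtd1, 0.15 for Uqcc, 0.14 for Fam110a, -0.35 for Flrt3 and -0.08 for Tbc1d20.

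In knockout against heterozygote 0 members passed after adjustment (0% of all genes), with a smallest adjusted p of 1.0. There were 5 members under the unadjusted threshold (3.91%), against 2.22% of all genes (1.26% higher and 0.969% lower): Tasp1 was higher, and Sdcbp2, BC020535, 2500004C02Rik and Ahcy lower. The groups did not overlap for 12 members, 3 higher and 9 lower (9.38%), against 5.91% of all genes (3.48% higher and 2.43% lower). In this comparison 46 members had a higher and 82 a lower knockout mean (median -0.022). Of all genes, 5945 were higher and 7361 lower (median -0.011). The difference between members and all genes was not tested. A difference over 0.3 in size was found for 3 members (2.34%) and 3.43% of all genes. Ahcy, which hydrolyses S-adenosylhomocysteine, was at 68.4, 74.4 and 74.1 FPKM in wild type, 76.2, 80.5 and 78.3 in heterozygotes and 75.1, 72.3 and 66.6 in knockouts. Its heterozygotes lay above both other groups, and the knockout difference from them was -0.14 (SE 0.06). Sdcbp2, a PDZ adaptor, was at 0.983 to 1.65 FPKM in heterozygotes and 0.740 to 0.814 in knockouts, on 20 to 42 implied fragments. 2500004C02Rik was at 5.37 ± 0.373 and 4.4 ± 0.255, and Scand1, a SCAN domain protein, at 43.5 ± 3.71 and 51.8 ± 6.59 with overlap (0.24, and 0.15 without knockout replicate 1 or with sex as a covariate). With sex as a covariate the difference was -0.50 for Sdcbp2 (-0.32 without it) and -0.16 for 2500004C02Rik (-0.24). Leaving out heterozygote replicate 3 or knockout replicate 2 gave 1 such member (1.83% and 1.39% of all genes), leaving out knockout replicate 3 gave 2 (2.26%), leaving out wild-type replicate 2 or 3 gave 3 (2.12% and 2.16%), and leaving out knockout replicate 1 gave 12 (9.38%, against 8.94% of all genes).

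No member's groups were ordered by the number of mutant alleles without overlap, against 0.113% of all genes ordered upwards and 0.0301% ordered downwards. In the fit of a slope per mutant allele 0 members passed after adjustment (0%), and 15 were under the unadjusted threshold, 7 with a positive slope and 8 with a negative one, against 2.99% and 6.7% of all genes. They were the 14 of knockout against wild type and 1110008F13Rik. Set against the wild-type range, 77 of 128 members lay within it in knockout replicate 1 (60.2%, against 58.5% of all genes), 45 in replicate 2 (35.2% against 33.4%) and 58 in replicate 3 (45.3% against 42.5%). In heterozygotes these were 55, 64 and 75 members (43.0%, 50.0% and 58.6%, against 47.6%, 46.5% and 51.3%).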

How the data were processed

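RNA of whole pancreas was sequenced in 9 libraries, 3 per genotype, grouped by sample title. The deposited unit is FPKM with lower and upper confidence bounds, per the file headers. The alignment used TopHat 2.0.4 on mm9, with up to 4 mismatches and 10 hits, per the series' design text. The submitters' processing notes also list CASAVA 1.8.2, DESeq and Cufflinks. The annotation and any strand setting were not given in the sources used here, and fragments of overlapping genes, such as H13 and Mcts2 or Snx5 and Snord17, cannot be told apart.

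The FPKM of the 248 symbols with several loci were summed. The 4 symbols flagged HIDATA (too many fragments to estimate) were treated as missing. Rows flagged as failed, 4 to 14 per library, were kept as deposited, and no member carried a flag. Implied fragments come from the upper bound, taken as 2 SE of counting error. Tests used limma 3.58.1 (R 4.3.3, intensity trend) on log2(FPKM + 1) with all 9 libraries in 1 fit, two-sided, Benjamini-Hochberg over 13306 genes at 0.05. Differences on this scale understate changes of low genes, and a permutation test of 3 against 3 cannot go below 0.1. Unadjusted p-values are used only to describe. The named members are those of smallest p in each comparison, nearest Nkx2-2, highest, most variable, highest per role list, or most like the member of smallest p; Polr3f and Zfp133-ps were added as part of a run seen in the data. The members, role lists and marker lists were chosen with earlier results of these data known. Promoter sequences were found for 94 of 128 members. Alternatives are given in the closing section.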

Additional observations from a re-analysis of the deposited data

How the results depend on the processing

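No member passed an adjusted p of 0.05 in any comparison under any alternative run, and the medians of the members stayed within 0.04 of 0. The median for knockout against wild type changed sign from -0.012 to 0.016 with size factors, to 0.004 when wild-type replicate 1 was left out, and to 0.006 when knockout replicate 2 was. The median for heterozygote against wild type (0.003) was -0.001 with the filter in all 9 libraries or when wild-type replicate 3 was left out, and -0.011 when wild-type replicate 2, heterozygote replicate 1 or both libraries that stand apart were. Counts under an unadjusted p of 0.05 moved. In knockout against wild type (14) they were 8 with no filter (5.95% of all genes). Array weights gave 36 (28.1% of members, 28.0% of all genes). There were 7 with sex as a covariate (4.19% of all genes) and 8 with only the groups compared (7.17%). Without knockout replicate 1 and heterozygote replicate 1 together there were 23 (18.0% of members, 19.8% of all genes). Leaving out 1 library gave 3 to 21 (3.0% to 19.8% of all genes). In heterozygote against wild type (5) the same alternatives gave 8, 9, 2, 9 and 8 (3.97%, 5.8%, 3.57%, 5.42% and 4.84% of all genes). With 1 library left out there were 2 to 10 (2.08% to 6.55% of all genes). In knockout against heterozygote (5) they were 15 with array weights (12.8% of all genes), 2 with sex (2.68%) and 2 with only the groups compared (1.94%). Voom on implied fragments gave 2 (2.07%), leaving out both libraries 11 (6.48%), and leaving out 1 library 1 to 12 (1.39% to 8.94%). The slope (15) gave 24 without both libraries (18.8% of members, 21.7% of all genes). It gave 4 to 24 leaving out 1 (4.0% to 20.9% of all genes). Counts of groups that do not overlap grow with fewer libraries by construction. Without both libraries they were 47, 30 and 51 (39.5%, 20.0% and 36.4% of all genes), and leaving out 1 library 15 to 47, 18 to 35 and 12 to 34 (up to 39.5%, 27.7% and 25.1% of all genes).

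Replicate numbers were not taken to pair the samples: same-numbered libraries had correlations of -0.189 to 0.29. With a replicate block the unadjusted counts were 11, 6 and 2 (8.14%, 3.73% and 2.46% of all genes), and 0 after adjustment. Depth limits the low members: 110 of 128 had at least 100 implied fragments in every library.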

Other observations

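Among rows of the interval that missed the filter, 6 reached 1 FPKM in a library. Sstr4, a somatostatin receptor gene, reached 1.33 FPKM in wild-type replicate 2 and was at 0.405 to 0.907 in the other 8 libraries. Defb25, a beta-defensin gene, was at 1.08, 0.396 and 1.12 FPKM in wild type, was listed at 0 in all heterozygotes, and was at 0.715, 0 and 0.443 in knockouts. Mmp24, a membrane-type metalloproteinase gene, was highest in heterozygote replicate 1 (1.29 FPKM) and knockout replicate 1 (1.07 FPKM), and at 0.228 to 0.853 elsewhere. Those libraries stand apart at Nkx2-2 in opposite directions, at 6.37 and 24.9 FPKM.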
